A study of Laguncularia racemosa with 22 samples.

Results

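The genes described here are the 100 assembled genes of *Laguncularia racemosa* leaves whose level stood highest above all other times at 3 h in each of 2 series of seedlings. *Laguncularia racemosa*, the white mangrove, is a tree of tropical tidal shores. Messenger RNA of leaves of wild-type seedlings 8 weeks old was sequenced in 22 libraries, in 8 groups formed by the letter P or Q and by the time labels 0, 3, 12 and 36 h. The P labels name freezing temperature for 0, 3 and 12 h, and at 36 h for 12 h followed by 24 h of recovery. The Q labels read control at the same 4 times. A single treatment text stands with both letters. It speaks of 0 °C and of a return to the growth regime, 28 °C at night and 30 °C in the day, and does not describe how the Q seedlings were kept. All seedlings had been grown with 16 h of light and 8 h of dark. Seeds came from 2 places, and the labels tie neither letter to a place, so everything that the letter carries cannot be told apart from cold. Against 0 h, time since the start, time of day and handling cannot be told apart either. The labels of 12 and 36 h lie 24 h apart and by these share a time of day, although no clock time is given. There were 3 libraries per group, but only 2 in P at 3 h (replicates 2 and 3) and in P at 36 h (replicates 1 and 2).

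Members were chosen by a score. The level of a gene in a library was its count divided by the library total and multiplied by 1000000 (CPM), and group levels were means of log2(CPM + 1). The score was the 3 h level minus the highest of the levels at 0, 12 and 36 h, taken in P and in Q, and the smaller of both values was kept. Of the 54696 genes in the table, 16061 had a mean of at least 1 CPM over the 22 libraries, 1267 of these had a score above 0, and the 100 highest scores were taken. The 3 h values therefore chose the genes, and the rise at 3 h is a description with no test. The scores ran from 2.63 at rank 1 to 0.757 at rank 100 with a median of 1.03, and the gene just outside had 0.755. All 100 members passed the separate filter on low counts and were among the 21694 genes tested.

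Transcripts that appear and vanish within hours are a known feature of leaves. In Arabidopsis, cold, touch, wounding and handling all raise transcripts of transcription factors and calcium-binding proteins within the first hours, and many of these decline again while the stress lasts, partly because their mRNAs are short-lived. The circadian clock also makes transcripts that peak at a set time of day, among them regulators of photosynthesis, growth and cold response. The files used here do not pair gene IDs with names, so no role can be given to any member, the leaf could not be checked by its marker genes, and members are called gene 1 to gene 100 by their rank in the score, with IDs for the first pair only. In whole leaves, fewer cells of a type and less RNA per cell cannot be told apart. Whether the libraries of a group are separate batches of seedlings is not stated, and p-values measure only the spread between them.

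Library totals ran from 13743563 to 18462363 counts, so that 1 CPM rests on 13.7 to 18.5 counts. Pairs of replicates differed by a chi-square per gene of 17.8 to 57.2, where sampling noise alone would give about 1, and each library was counted separately.

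Together the 100 genes made up a small part of the leaf mRNA, larger in each library of 3 h than in any library of another time. In P their summed level was 7395, 3350 and 2911 CPM in the 3 libraries at 0 h, 11987 and 12615 CPM at 3 h, 1870, 2670 and 2438 CPM at 12 h, and 2261 and 3855 CPM at 36 h. In Q it was 4701, 3776 and 4352 CPM at 0 h, 13532, 10766 and 10174 CPM at 3 h, 2046, 1716 and 1558 CPM at 12 h, and 2266, 1850 and 1763 CPM at 36 h. The 5 libraries of 3 h thus held 1.02% to 1.35% of their counts in these genes, and the other 17 held 0.156% to 0.739%. The mean of the summed level at 3 h was 2.70 times that at 0 h in P and 2.69 times in Q. The high value of P at 0 h belongs to replicate 1, where gene 57 alone gave 54.1% of the sum.

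**Figure D1:**
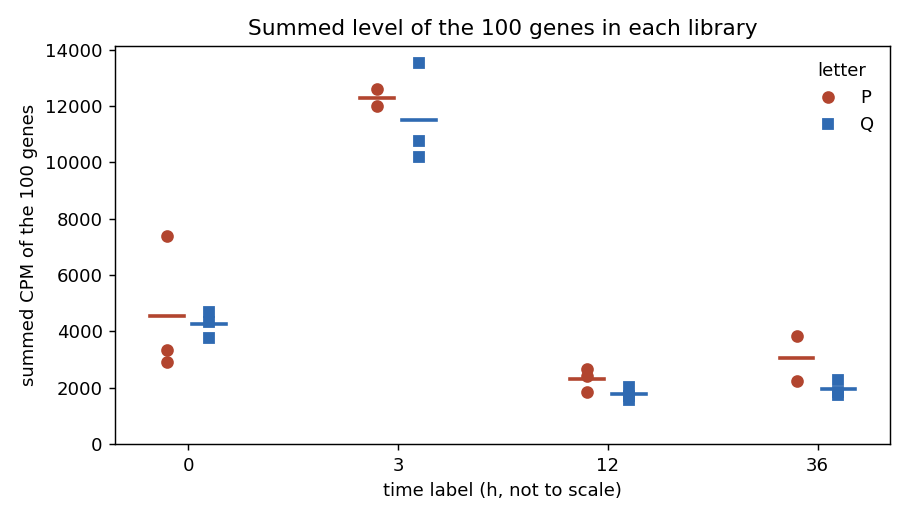
Summed level of the 100 genes (CPM, vertical axis) in each of the 22 libraries by time label (horizontal axis, not to scale), with circles for P, squares for Q and a line at each group mean. The 5 libraries of 3 h lie between 10174 and 13532 CPM, and P 0 h replicate 1 stands highest among the others at 7395 CPM.

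Gene by gene, the median member was 1.70 higher at 3 h than at 0 h on the log2(CPM + 1) scale in P, and 1.42 higher in Q. At 12 h it stood 0.59 below its 0 h level in P (-0.59) and 0.85 below in Q (-0.85). At 36 h the median difference from 0 h was -0.00 in P and -0.51 in Q. Over the 16061 genes kept by the minimum, the same medians lay between -0.14 and 0.02 in P and between -0.12 and -0.06 in Q. In mean CPM, the 3 h level was 3.32 times the 0 h level at the median in P, from 1.05 for gene 57 to 218 for gene 64. In Q the median ratio was 2.99, with a range of 1.61 to 65.5.

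**Figure D2:**
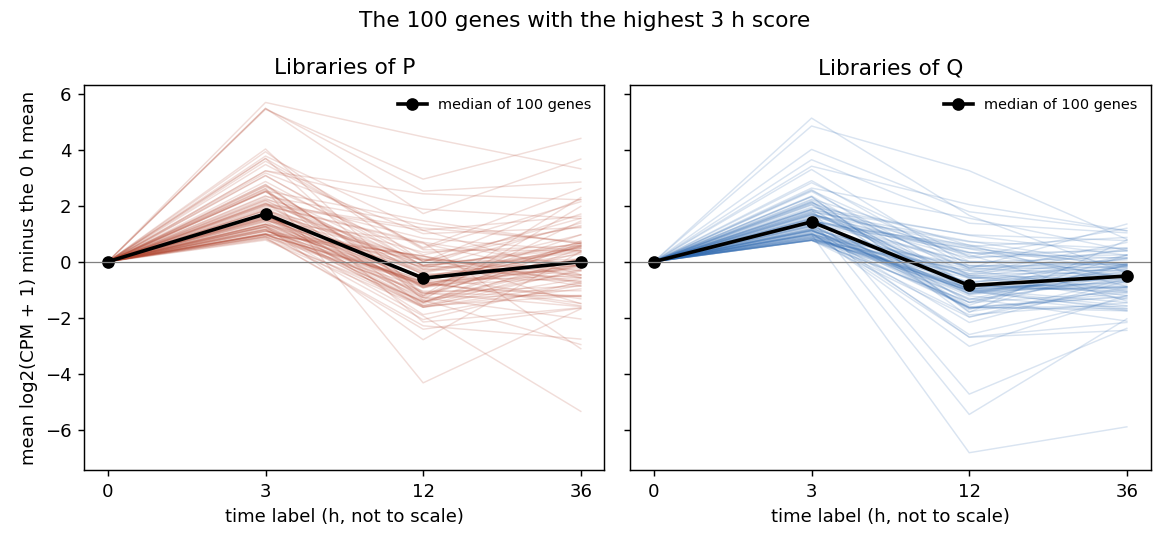
Course of each of the 100 genes (thin lines) and their median (black) in P (left) and Q (right), as mean log2(CPM + 1) minus the 0 h mean, against the time label (not to scale). The median is 1.70 at 3 h in P and 1.42 in Q, and at 36 h it is back at -0.00 in P and at -0.51 in Q.

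The members covered a wide range of levels, in CPM that are not corrected for gene length. Their mean level at 3 h over both letters ran from 3.00 to 2155 CPM with a median of 40.8 CPM. It was under 10 CPM for 17 genes, 10 to 100 CPM for 57 and over 100 CPM for 26. The score was larger in P for 51 of the genes and larger in Q for 49.

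Many members, but not all, were free of overlap between 3 h and the other times. In P, both 3 h libraries exceeded all 8 others for 79 members (4.61% of the kept genes), and in Q all 3 exceeded all 9 others for 72 (2.91%). In both letters this held for 60 members (1.15% of the kept genes), in P alone for 19, in Q alone for 12 and in neither for 9. These counts rest on the values that chose the genes and are given as description.

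Gene 1, TRINITY_DN767_c10_g1, was at 11.2, 22.6 and 19.7 CPM in the P libraries of 0 h and at 999 and 645 CPM in those of 3 h. In P at 12 h it was at 85.5, 149 and 85.5 CPM, and at 36 h at 58.8 and 282 CPM. In Q it was at 17.4, 8.76 and 16.1 CPM at 0 h, at 799, 279 and 584 CPM at 3 h, at 77.8, 33.1 and 34.5 CPM at 12 h, and at 12.1, 13.2 and 6.03 CPM at 36 h. Every 3 h library of each letter lay above every other library of that letter except that, across letters, P 36 h replicate 2 reached the level of Q 3 h replicate 2. As means, P went from 17.8 ± 5.90 (SD, n = 3) to 822 ± 250 CPM (SD, n = 2), and Q from 14.1 ± 4.65 to 554 ± 261 CPM (SD, n = 3 each).

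Gene 2, TRINITY_DN2201_c0_g1, had much lower counts. In P it was at 2.90, 0.383 and 0.812 CPM at 0 h, at 26.7 and 22.9 CPM at 3 h, at 0.218, 1.43 and 7.01 CPM at 12 h, and at 5.06 and 0.294 CPM at 36 h. Its Q libraries were at 1.16, 0.986 and 0.871 CPM at 0 h, at 18.8, 19.9 and 1.54 CPM at 3 h, at 0.0627, 0 and 0.231 CPM at 12 h, and at 2.40, 0 and 0.670 CPM at 36 h. Both P libraries of 3 h stood clear of all others of that letter, while in Q replicate 3 of 3 h lay within the range of 36 h. The Q mean at 3 h was accordingly 13.4 ± 10.3 CPM (SD, n = 3), against 24.8 ± 2.69 CPM (SD, n = 2) in P.

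Genes 3 to 10 had mean levels at 3 h that were 5.20 times (gene 8) to 217 times (gene 10) those at 0 h in P, and 3.80 times (gene 9) to 65.5 times (gene 4) in Q. Gene 10 was close to undetected at 0 h in P, with 8, 5 and 0 counts, or 0.473, 0.273 and 0 CPM, and reached 52.9 and 55.1 CPM at 3 h. In Q it went from 1.98, 1.28 and 2.79 CPM to 48.6, 26.0 and 17 CPM. Its ratio in P thus rests on few counts at 0 h. Gene 4 had a like course at lower counts, from 1.18, 0.164 and 0.433 CPM to 21.2 and 18.9 CPM in P and from 0, 0.754 and 0.0581 CPM to 33.7, 6.27 and 13.3 CPM in Q. Gene 5 was uneven at 3 h, with 7.31 and 32.5 CPM in P and 9.27, 43.2 and 2.55 CPM in Q. Its lowest Q library of 3 h lay below the 3.31 CPM of Q 0 h replicate 3. Gene 6 had the highest CPM of genes 3 to 10, at 365 and 170 CPM in P and 183, 180 and 41.9 CPM in Q at 3 h, from 13.8 to 16.8 CPM and 10.6 to 26.0 CPM at 0 h.

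The members with the highest CPM at 3 h were genes 57, 38 and 14. Gene 57 was at 4000, 457 and 183 CPM at 0 h in P and at 1126 and 2128 CPM at 3 h, then at 36.7, 484 and 326 CPM at 12 h and at 28.8 and 8.83 CPM at 36 h. In Q it went from 1681, 1014 and 1497 CPM at 0 h to 2803, 2713 and 2536 CPM at 3 h, to 9.11 to 15.9 CPM at 12 h and to 3.62 to 73.0 CPM at 36 h. Replicate 1 of P at 0 h exceeded both 3 h libraries, so in P this gene had no clear peak. Gene 38 was at 411 to 517 CPM at 0 h in P and at 1032 and 994 CPM at 3 h, and in Q at 407 to 457 CPM and then at 2009, 639 and 1082 CPM. Gene 14 was at 219 to 291 CPM at 0 h in P and at 1029 and 1074 CPM at 3 h, and in Q at 54.8 to 176 CPM and then at 790, 784 and 610 CPM. Both lay free of overlap between 0 and 3 h.

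At the other end, 7 members were under 1 CPM in every 0 h library of both letters, genes 39, 45, 52, 61, 64, 76 and 79. Gene 79 was at 0.414, 0.164 and 0.0542 CPM at 0 h in P and at 8.28 and 9.94 CPM at 3 h. The Q libraries were at 0.465, 0.406 and 0.0581 CPM and then at 5.93, 5.38 and 3.76 CPM. Its 3 h libraries were all above its 0 h libraries, a rise that chose the gene and is given as description. The 3 h values also counted toward the mean of 1 CPM that each such gene had to reach. Gene 64 showed how uneven such genes could be, with 1.41 and 38.3 CPM at 3 h in P and 14.1, 3.08 and 0.336 CPM in Q. Gene 50, in the middle of the list, was at 0.975 to 1.31 CPM at 0 h in P and at 123 and 66.7 CPM at 3 h, and in Q at 1.04 to 2.38 CPM and then at 59.7, 27.9 and 41.2 CPM.

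The edge of the list was gradual. Gene 100 was at 159, 105 and 79.3 CPM at 0 h in P and at 181 and 246 CPM at 3 h, and in Q at 141, 116 and 160 CPM and then at 194, 270 and 245 CPM. The gene just outside the list was at 9.52 to 17.3 CPM at 0 h in P and at 25.5 and 35.4 CPM at 3 h, and in Q at 12.3 to 14.1 CPM and then at 38.4, 33.2 and 37.9 CPM. With single libraries left out of the score, 77 to 99 of the 100 genes stayed on the list.

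Replicates of 3 h were themselves unequal for these genes. The highest and lowest library differed by more than 1 on the log2(CPM + 1) scale for 27 members in P at 3 h and for 42 in Q at 3 h, against 2.88% and 6.46% of the kept genes. At the other times the count was 21 (Q at 36 h) to 39 (P at 0 h), against 5.39% to 10.3% of the kept genes. Replicate 1 of Q at 3 h was the highest of its group for 54 members and replicate 3 the lowest for 49, and P 3 h replicate 3 was the higher for 66. The summed levels of Q at 3 h were likewise highest in replicate 1 and lowest in replicate 3. The counts of highest and lowest libraries stand without the share of all kept genes, so nothing particular to the members is read from them.

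**Figure D3:**
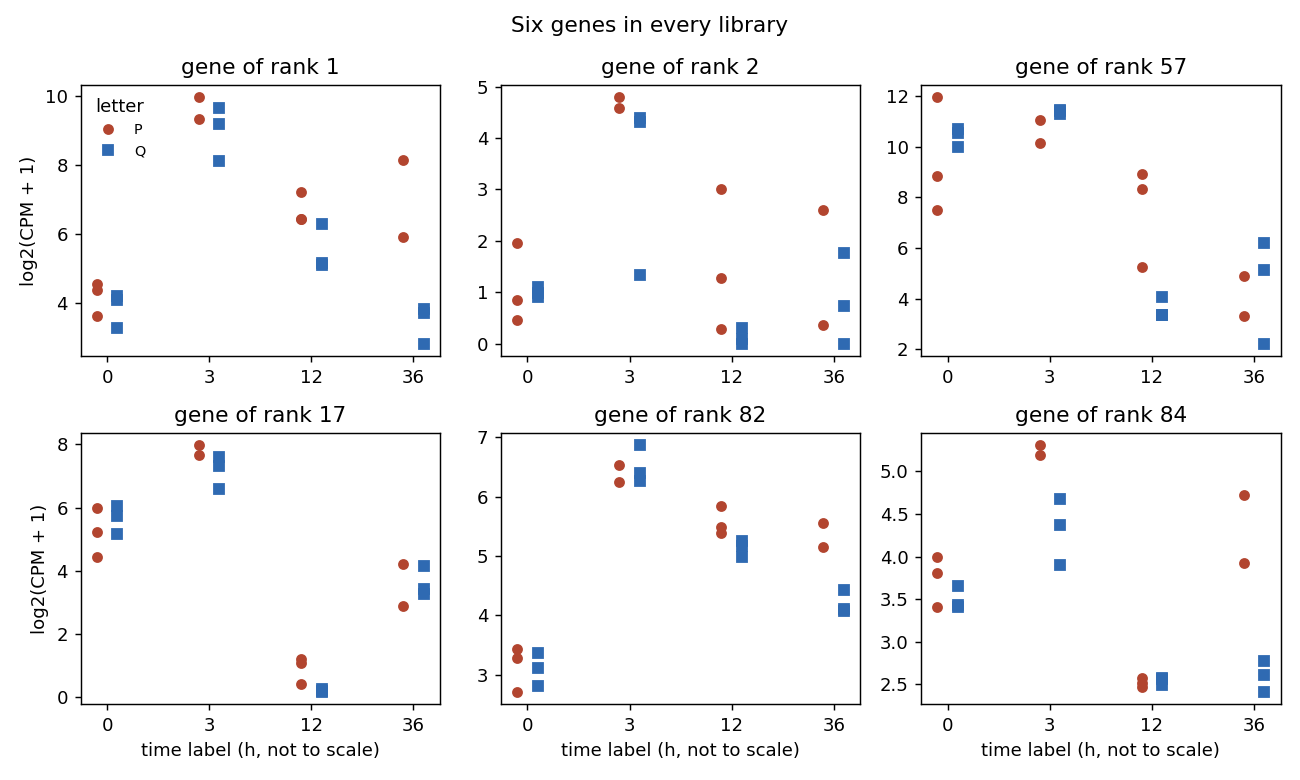
Level of genes 1, 2, 57, 17, 82 and 84 in each library as log2(CPM + 1) (vertical axes differ in range) by time label (not to scale), with circles for P and squares for Q; near-equal points overlap. Gene 57 has 1 P library of 0 h above those of 3 h, gene 17 is near 0 at 12 h, gene 82 stays above 0 h in both letters, and gene 84 is higher in P than in Q at 36 h.

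A reading of the 3 h rise in libraries that did not choose the genes was possible between the letters, since P and Q share no library. The 100 genes with the highest score in P alone were read in Q: 42 rose and 1 fell from 0 to 3 h there in edgeR's quasi-likelihood test (background 5.9% and 3.82% of the 21694 genes). Their median log2 change in Q was 1.28, against -0.02 over all genes, and 87 of them had a score above 0 in Q, against 14.5% of the kept genes. Conversely, of the 100 genes with the highest score in Q alone, 52 rose and 0 fell in P (background 3.77% and 1.49%), with a median log2 change of 2.24 against -0.02 and with 69 scores above 0 against 17.8%. Without P 3 h replicate 3 the 52 became 30. The 2 lists share 33 genes, and 53 genes of the P list and 45 of the Q list are members of the set described here. The minimum level that all genes passed used the libraries of both letters.

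By 12 h the 3 h peak had ended, and the question was where the genes stood against 0 h. The 12 h and 0 h levels entered the choice through their maximum with 36 h, which fixes no direction between them. It did hold all of them below the 3 h level. A gene that rose beyond its 3 h level by 12 or 36 h could thus not be a member, while falls were not limited. The background genes are under no such limit, so shares of rises and falls set against them are description. In P, 13 members rose and 29 fell from 0 to 12 h (background 15.5% and 16.6% of the genes tested), and in Q 9 rose and 39 fell (17.9% and 19.9%), in edgeR at an adjusted p under 0.05. The median log2 change of the members was -0.63 in P and -0.84 in Q, against -0.04 and -0.02 over all genes. The share of falls was thus above the background in both letters and the share of rises was not. How much of this the choice itself made was not tested. With library totals in place of TMM, a scaling that assumes most genes unchanged, the medians over all genes moved to -0.17 in P and -0.14 in Q. The letters shared 25 of the falls, 86.2% of those in P and 64.1% of those in Q, and 9 of the rises, 69.2% and 100%. Over all genes the shares were 73.6% and 61.2% for falls and 72.4% and 62.9% for rises, and no member was called in opposite directions.

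The clearest fall at 12 h was that of gene 17. In P it was at 62.8, 36.6 and 20.5 CPM at 0 h, at 250 and 203 CPM at 3 h, and at 1.31, 1.09 and 0.319 CPM at 12 h. Its Q levels were 52.5, 34.9 and 64.9 CPM, then 158, 195 and 94.8 CPM, and 0.188, 0.129 and 0.115 CPM at 12 h. The 12 h libraries were far below those of 0 h in each letter. The log2 change from 0 to 12 h was -5.35 (SE 0.58) in P and -8.28 (SE 0.73) in Q (adjusted p in edgeR 2.6e-06 and 1.86e-07).

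The other falls with the smallest adjusted p-values were less steep. In P gene 63 went from 152, 139 and 160 CPM at 0 h to 41.0, 53.5 and 56.6 CPM at 12 h (log2 -1.45, SE 0.18, adjusted p in edgeR 3.47e-06). Gene 51 went from 106, 55.1 and 110 CPM to 23.9, 18.8 and 17.3 CPM in P (log2 -2.05, SE 0.26, adjusted p in edgeR 8.71e-06). In neither gene did the 3 libraries of 12 h overlap those of 0 h. In Q gene 69 went from 38.4, 36.1 and 20.9 CPM to 3.20, 3.30 and 2.31 CPM (log2 -3.32, SE 0.42, adjusted p in edgeR 7.11e-06). Gene 80 went from 118, 39.7 and 58.4 CPM to 9.60, 9.52 and 8.65 CPM in Q (log2 -2.85, SE 0.38, adjusted p in edgeR 1.62e-05).

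A minority of members were still raised at 12 h. Gene 82 was at 5.56, 9.79 and 8.77 CPM at 0 h in P, at 75.1 and 91.5 CPM at 3 h and at 56.1, 43.7 and 40.8 CPM at 12 h. In Q it was at 7.62, 6.03 and 9.29 CPM, then at 115, 75.7 and 82.9 CPM, and at 37.3, 30.5 and 34.8 CPM at 12 h. At 12 h it was thus well below 3 h and still well above 0 h in every library. The log2 change from 0 to 12 h was 2.66 (SE 0.23) in P and 2.27 (SE 0.23) in Q (adjusted p in edgeR 3.72e-08 and 1.93e-07). Gene 31 went from 4.91, 7.88 and 3.95 CPM to 119, 182 and 125 CPM in P, and from 4.42, 7.02 and 6.97 CPM to 69.9, 56.1 and 72.4 CPM in Q. Its log2 changes were 4.79 (SE 0.57) and 3.54 (SE 0.54) (adjusted p in edgeR 8.5e-06 and 8.04e-05). No library of 12 h overlapped 0 h in either letter.

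TRINITY_DN767_c10_g1 was among these rises, with a log2 change from 0 to 12 h of 2.71 (SE 0.59, adjusted p in edgeR 0.00213) in P and 1.90 (SE 0.58, adjusted p in edgeR 0.0166) in Q. The call in Q was lost without Q 0 h replicate 2 (log2 1.64, adjusted p in edgeR 0.0658) or Q 12 h replicate 1 (log2 1.41, adjusted p in edgeR 0.0822). Gene 61 rose in P from 0.0591, 0.273 and 0.162 CPM to 2.69, 2.73 and 4.65 CPM (log2 4.39, SE 0.62, adjusted p in edgeR 1.74e-05). With counts summed over the Trinity cluster that it shares with other IDs, its log2 change was 0.00 (adjusted p in edgeR 0.999). Its call thus holds for the ID and not for the cluster. Gene 74 rose in Q from 7.85, 10.4 and 7.84 CPM to 20.4, 18.2 and 15.0 CPM (log2 1.15, SE 0.22, adjusted p in edgeR 0.000337).

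The time at which a member stood second-highest differed between the letters for 46 members. It was 0 h for 40 members, 12 h for 19 and 36 h for 41 in P, and 0 h for 65, 12 h for 19 and 36 h for 16 in Q. Both letters had the same time for 54 members, namely 0 h for 36, 12 h for 9 and 36 h for 9, and 23 members had 36 h in P and 0 h in Q. The lowest level fell at 12 h for 57 members in P and 56 in Q, at 36 h for 24 and 30, and at 0 h for 19 and 14.

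Against 0 h, 16 members were higher and 16 lower at 36 h in P (background 19.1% and 17.7%), so neither share exceeded that of all genes. In Q, 3 were higher and 30 lower (background 14.1% and 15.3%). The limit that the choice put on rises holds for these counts too. With library totals in place of TMM the P split became 21 higher and 13 lower (21.0% and 15.0% of all genes), and without P 36 h replicate 2 it was 9 higher and 15 lower (13.1% and 9.01%). The median log2 change was -0.04 in P and -0.61 in Q, against -0.00 over all genes in each. The letters shared 11 falls, 68.8% of those in P and 36.7% of those in Q, and 3 rises, 18.8% and 100%. Over all genes the shares were 59.5% and 69.2% for falls and 50.1% and 67.7% for rises.

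Among the members higher at 36 h, gene 82 was at 34.7 and 45.8 CPM in P and at 15.9, 20.5 and 16.2 CPM in Q. All 5 libraries were above the 6 of 0 h, with log2 changes of 2.24 (SE 0.24, adjusted p in edgeR 8.49e-07) in P and 1.23 (SE 0.22, adjusted p in edgeR 0.000329) in Q. Gene 50 was at 19.5 and 96.3 CPM in P against 1.06, 1.31 and 0.975 CPM at 0 h (log2 5.60, SE 0.63, adjusted p in edgeR 4.57e-06). Gene 31 was at 22.8 and 169 CPM in P (log2 4.01, SE 0.58, adjusted p in edgeR 6.04e-05). In both genes P 36 h replicate 2 was well above replicate 1. Without replicate 2, gene 50 was at a log2 change of 4.10 (adjusted p in edgeR 3.68e-05) and gene 31 at 2.00 (adjusted p in edgeR 0.00121). Without replicate 1 they were at 6.36 and 4.86. TRINITY_DN767_c10_g1 was also higher than at 0 h in P (log2 3.17, SE 0.63, adjusted p in edgeR 0.000975), a call lost without P 36 h replicate 2 (log2 1.70, adjusted p in edgeR 0.0636) and at a log2 of 3.92 without replicate 1. In Q its log2 difference was -0.40 (SE 0.58, adjusted p in edgeR 0.669).

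The other members higher at 36 h than at 0 h in Q were genes 74 and 4. Gene 74 was at 17.9, 13.6 and 14.5 CPM (log2 0.85, SE 0.22, adjusted p in edgeR 0.00611), all above its 3 libraries of 0 h. Gene 4 was at 1.80, 1.34 and 1.41 CPM (log2 2.48, SE 0.91, adjusted p in edgeR 0.0489). The call of gene 4 was lost without Q 0 h replicate 1 or 3, without any of the 3 libraries of Q at 36 h, with library totals, with no filter and with the compared libraries alone (log2 1.93 to 2.56, adjusted p in edgeR 0.0506 to 0.168). Without Q 0 h replicate 2 its log2 change was 5.38 (adjusted p in edgeR 0.00439), with the other 2 libraries of 0 h at 0 and 0.0581 CPM.

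Among the members lower at 36 h, gene 80 was at 9.70 and 5.53 CPM in P from 74.6, 55.1 and 42.2 CPM at 0 h (log2 -2.98, SE 0.46, adjusted p in edgeR 8.44e-05). In Q it was at 16.7, 16.2 and 9.38 CPM (log2 -2.32, SE 0.37, adjusted p in edgeR 0.000153). Both letters lay entirely below their 0 h libraries. Gene 28 was at 1.06 and 0.118 CPM in P from 21.5, 10.0 and 5.63 CPM (log2 -4.44, SE 0.86, adjusted p in edgeR 0.000687). This value moved to -6.69 without P 36 h replicate 1, to -3.56 without P 36 h replicate 2 and to -3.79 without P 0 h replicate 1, and the call was kept in each. Gene 43 fell in Q from 41.1, 26.6 and 18.8 CPM to 7.80, 7.82 and 6.70 CPM (log2 -1.92, SE 0.30, adjusted p in edgeR 9.66e-05). Gene 99 fell in Q from 169, 128 and 135 CPM to 48.7, 48.7 and 45.1 CPM (log2 -1.57, SE 0.25, adjusted p in edgeR 0.000115). Neither of the last genes had an overlap between these times. Gene 70 had 0 counts in all 6 Q libraries of 12 and 36 h, from 29, 10 and 13 counts at 0 h.

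From 12 to 36 h, 33 members rose and 11 fell in P (background 17.5% and 15.8%), with a median log2 change of 0.50 against 0.06 over all genes. In Q, 12 rose and 10 fell (background 12.5% and 11.4%), with a median of 0.08 against 0.04, so the shares in Q were near those of all genes. The choice held the levels of both times below the 3 h level, a limit that the background genes do not have. The shares of this contrast are therefore description. Without P 36 h replicate 2, P had 11 rises and 4 falls, against 10.3% and 7.68% of all genes in the same fit, so the share of rises was then near the background. Without P 36 h replicate 1 it had 27 and 4 (13.3% and 10.8%), without P 12 h replicate 2 it had 25 and 7 (14.5% and 14.1%), and with no filter 22 and 4 (5.97% and 5.11%). Library totals moved the median of all genes in P to 0.26 and gave 37 rises and 9 falls among the members (23.8% and 10.2% of all genes). In Q, leaving out single libraries gave 6 to 12 rises and 5 to 9 falls, the lowest without Q 36 h replicate 1 and Q 36 h replicate 3. Without Q 12 h replicate 2 there were 7 and 7 (9.30% and 8.38% of all genes), and with no filter 3 and 8 (3.75% and 3.78%).

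Gene 84 was at 4.73, 4.98 and 4.53 CPM at 12 h in P and at 14.2 and 25.5 CPM at 36 h (log2 1.86, SE 0.24, adjusted p in edgeR 1.13e-05). Gene 69 rose in P from 3.71, 2.86 and 2.30 CPM to 28.2 and 40.1 CPM (log2 3.33, SE 0.44, adjusted p in edgeR 2.89e-05). It rose in Q as well, from 3.20, 3.30 and 2.31 CPM to 12.0, 8.47 and 20.2 CPM (log2 2.13, SE 0.41, adjusted p in edgeR 0.00148). None of these groups overlapped. Gene 49 rose in P from 14.8, 10.6 and 7.72 CPM to 51.7 and 107 CPM (log2 2.65, SE 0.37, adjusted p in edgeR 4.41e-05). Gene 17, near 0 at 12 h in Q, was back at 16.9, 9.69 and 8.51 CPM (log2 6.19, SE 0.76, adjusted p in edgeR 4.59e-05), still below each of its 0 h libraries. Gene 51 rose in Q from 30.2, 16.7 and 19.2 CPM to 53.1, 47.2 and 52.2 CPM (log2 1.12, SE 0.26, adjusted p in edgeR 0.0044).

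Fewer members fell than rose from 12 to 36 h in P. There gene 65 went from 38.0, 70.2 and 49.5 CPM to 16.5 and 16.2 CPM (log2 -1.89, SE 0.38, adjusted p in edgeR 0.00106). Gene 71 went from 9.75, 6.41 and 5.87 CPM to 2.06 and 4.59 CPM (log2 -1.34, SE 0.39, adjusted p in edgeR 0.0112). The log2 change was -1.99 without P 36 h replicate 2. The call did not pass without P 36 h replicate 1 (log2 -0.87, adjusted p in edgeR 0.172) or with the compared libraries alone (adjusted p in edgeR 0.0587). With counts summed over its Trinity cluster the direction turned (log2 0.76, adjusted p in edgeR 0.00541). Gene 99 went from 68.4, 72.1 and 86.3 CPM to 40.0 and 47.0 CPM (log2 -0.998, SE 0.29, adjusted p in edgeR 0.0116), and its call was lost without P 36 h replicate 1 or 2 and in a fit of unfiltered genes (log2 -0.89 to -1.08, adjusted p in edgeR 0.0501 to 0.104).

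In Q gene 82 fell from 12 to 36 h (log2 -1.04, SE 0.22, adjusted p in edgeR 0.00189). Gene 31 fell from 69.9, 56.1 and 72.4 CPM to 9.60, 14.1 and 10.5 CPM (log2 -2.62, SE 0.52, adjusted p in edgeR 0.00203). Gene 19 fell from 14.2, 23.8 and 13.6 CPM to 5.13, 4.44 and 4.29 CPM (log2 -1.97, SE 0.44, adjusted p in edgeR 0.0041). In all 3 genes the Q libraries of 36 h lay below those of 12 h. TRINITY_DN767_c10_g1 fell in Q too (log2 -2.29, SE 0.59, adjusted p in edgeR 0.0109), a call lost without Q 12 h replicate 1 (log2 -1.80, adjusted p in edgeR 0.0518) or Q 36 h replicate 3 (log2 -2.03, adjusted p in edgeR 0.0508). In P its log2 difference was 0.46 (SE 0.60, adjusted p in edgeR 0.602), and -1.03 (adjusted p in edgeR 0.353) without P 36 h replicate 2.

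The letters were also set against each other at single times. At 0 h no member was called in edgeR (background 0%), 7 had an unadjusted p under 0.05, against 6.20% of all genes, and DESeq2, another count test, called 0 (0.0801% of the genes it tested). At 3 h no member was called either (background 0.0138%), with 12 unadjusted p-values under 0.05, against 5.70% of all genes, and 1 call by DESeq2 (0.155%). The 3 h differences ran from -0.89 to 2.20 on the log2 scale with a median of 0.21 and a median SE of 0.51, and 91 of the 100 lay within 1 of equality. P was above Q for 70 members, against 48.7% of all genes tested. The rule used these same 3 h values and required a peak in both letters. The comparison at 3 h therefore cannot decide whether the letters differed in these genes, and its counts are given as description. A difference of the size of its SE was also not detectable in a typical member. The difference between P and Q in their rise from 0 to 3 h is likewise made of the values that chose the genes, and its test is not used here.

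At 12 h, 2 members were higher in P and 0 lower (background 2.26% and 1.31%), a share near that of all genes. The choice held the 12 h level of each letter below its own 3 h level, so this share is description. The median log2 difference was 0.32, against -0.00 over all genes. P was above Q for 67 members, against 49.3% of all genes tested, and 26 had an unadjusted p under 0.05 in edgeR, against 19.4%. Gene 25 was at 20.7, 20.4 and 17.3 CPM in P and at 10.9, 7.64 and 4.79 CPM in Q (log2 1.41, SE 0.28, adjusted p in edgeR 0.0167). Gene 58 was at 13.4, 24.9 and 22.7 CPM in P and at 8.59, 11.1 and 8.13 CPM in Q (log2 1.23, SE 0.31, adjusted p in edgeR 0.0391). Neither pair of groups overlapped, and neither call was stable. Gene 25 lost its call without P 12 h replicate 2 or 3 or Q 12 h replicate 2, and with the compared libraries alone (log2 1.36 to 1.48, adjusted p in edgeR 0.0566 to 0.0966). Gene 58 lost its call under 9 of 14 alternatives, among them leaving out P 12 h replicate 2 or 3 or any library of Q at 12 h (log2 1.04 to 1.36, adjusted p in edgeR 0.0552 to 0.164). The number called was 0 to 5 with single libraries left out, 1 higher and 1 lower with library totals, 1 with the replicate number as a block, and 10 higher and 1 lower with DESeq2 (5.13% and 3.35% of the genes it tested). The 5 came without P 12 h replicate 1, where 4.75% of all genes were called higher. The change from 0 to 12 h differed between the letters for no member in edgeR (background 0.0461%), with 19 unadjusted p-values under 0.05, against 14.3% of all genes, and 6 calls by DESeq2 (4.23%).

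At 36 h, 27 members were higher in P than in Q and 2 lower (background 8.72% and 4.94%). The median log2 difference was 0.62, against -0.04 over all genes, and 73 members lay above 0, against 46.7% of all genes tested. Both P libraries exceeded all 3 Q libraries for 41 members (27.5% of the kept genes) and lay below them for 11 (22.8%). All 27 members called higher were among the 41. The choice held the 36 h level of each letter below its own 3 h level, where P was above Q for 70 members. The background genes are under no such limit, so these shares are description. How much of them the choice itself made was not tested.

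Both P libraries of 36 h were unequal for these genes. Replicate 2 was above replicate 1 in 21 of the 27 and at least 2-fold above in 11. Over all members it was above in 64, against 54.7% of the kept genes, with a median log2 difference of 0.31 against 0.04. Without P 36 h replicate 2, 8 members were called higher and 1 lower, against 3.31% and 0.779% of all genes in the same fit, with the remaining library assumed to vary like the other groups. The part of this library in the result was not tested further.

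**Figure D4:**
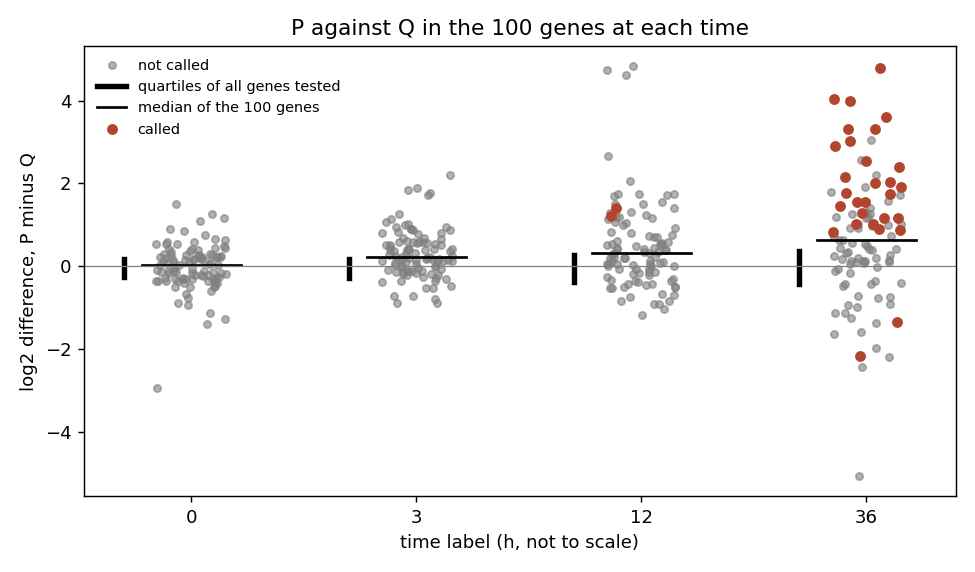
Log2 difference of P from Q for each of the 100 genes (points) at each time label (not to scale), with called genes in red, the median of the 100 as a thin line and the quartiles of all 21694 genes tested as a bar. The medians are 0.04, 0.21, 0.32 and 0.62 at 0, 3, 12 and 36 h, and the called genes number 0, 0, 2 and 29.

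Gene 84 gave the smallest adjusted p at 36 h. It was at 14.2 and 25.5 CPM in P and at 5.87, 4.32 and 5.09 CPM in Q, after 4.53 to 4.98 CPM at 12 h in P and 4.61 to 4.95 CPM in Q (log2 difference at 36 h 1.92, SE 0.24, adjusted p in edgeR 4.02e-05). The letters were thus almost equal at 12 h and apart at 36 h. At 3 h P also stood above Q, without a call (log2 0.95, SE 0.23, adjusted p in edgeR 0.435). Gene 79 was at 3.06 and 6.83 CPM in P and at 0.0667, 0.350 and 0.0670 CPM in Q (log2 4.78, SE 0.73, adjusted p in edgeR 0.000262), and at a log2 of 4.14 without P 36 h replicate 2 and of 6.01 without Q 36 h replicate 2. Gene 43 was at 40.5 and 27.3 CPM in P and at 7.80, 7.82 and 6.70 CPM in Q (log2 2.15, SE 0.32, adjusted p in edgeR 0.000329). In P it stood in the range of its 0 h libraries of 26.9, 36.0 and 45.1 CPM.

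For TRINITY_DN767_c10_g1, the log2 difference at 36 h was 3.98 (SE 0.65, adjusted p in edgeR 0.00101), and it passed under each of the 13 alternatives tried. It was 2.51 without P 36 h replicate 2 (adjusted p in edgeR 0.0353) and 4.73 without replicate 1. Gene 50 was at 19.5 and 96.3 CPM in P and at 4.93, 4.55 and 4.29 CPM in Q (log2 3.61, SE 0.56, adjusted p in edgeR 0.000597), with 2.1 (adjusted p in edgeR 0.0247) without P 36 h replicate 2 and 4.36 without replicate 1. Gene 10 was at 4.65 and 42.3 CPM in P and at 1.53, 1.81 and 0.737 CPM in Q (log2 4.04, SE 0.80, adjusted p in edgeR 0.00323). Its log2 difference was 4.92 without P 36 h replicate 1, and its call was lost without replicate 2 (log2 1.77, adjusted p in edgeR 0.228) and with the compared libraries alone (log2 4.07, adjusted p in edgeR 0.0549). TRINITY_DN2201_c0_g1 did not pass (log2 1.40, SE 1.38, adjusted p in edgeR 0.565), and without P 36 h replicate 1 its sign turned (log2 -1.76, adjusted p in edgeR 0.725).

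The 2 members lower in P at 36 h were genes 95 and 65. Gene 95 was at 0.706 and 0.589 CPM in P and at 2.87, 2.22 and 3.55 CPM in Q (log2 -2.17, SE 0.52, adjusted p in edgeR 0.00878), and its call was lost without P 36 h replicate 2 (log2 -2.00, adjusted p in edgeR 0.120). Gene 65 was at 16.5 and 16.2 CPM in P and at 34.2, 40.2 and 46.7 CPM in Q (log2 -1.34, SE 0.37, adjusted p in edgeR 0.0234). Its call was lost without P 36 h replicate 1 or 2, without Q 36 h replicate 2 or 3, and in a fit of unfiltered genes (log2 -1.21 to -1.35, adjusted p in edgeR 0.0514 to 0.204). In both genes the letters did not overlap.

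The change from 0 to 36 h differed between the letters for 10 members, all with the higher change in P (background 2.98% higher and 1.53% lower), and the median log2 difference in change was 0.64 against -0.01 over all genes. These were genes 1, 10, 18, 31, 43, 50, 79, 81, 84 and 89. The limit that the choice put on the 36 h levels holds for this count too, so its share is description. The smallest adjusted p-values were those of gene 10 (log2 6.98, SE 1.25, adjusted p in edgeR 0.00532), gene 79 (log2 5.26, SE 1.05, adjusted p in edgeR 0.00721) and gene 84 (log2 1.57, SE 0.32, adjusted p in edgeR 0.00809). For gene 10 the letters differed by 4.04 at 36 h alone. The rest came from 0 h, where P stood below Q on few counts (log2 -2.94, SE 0.99, adjusted p in edgeR 0.695). Without P 36 h replicate 2, gene 10 was at 4.71 and gene 79 at 4.62 (adjusted p in edgeR 0.0430 and 0.0460). The count became 4 higher and 1 lower without that library (0.948% and 0.329% of all genes), 5 higher without Q 0 h replicate 3 (2.04%) or Q 36 h replicate 3 (1.80%), and 6 higher without P 0 h replicate 3 (2.24%) or Q 36 h replicate 2 (1.95%). With no filter it was 6 higher and 1 lower (1.13% and 0.654%). DESeq2 gave 18 higher and 2 lower, against 5.42% and 3.23% of the genes it tested.

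Members were spread over the assembly. Trinity, the de novo assembler whose form the IDs have, groups related transcripts into clusters. Of the members, 41 shared a cluster with at least 1 other ID, against 29.5% of all IDs. The latter include IDs below the minimum level that all members passed, so the sets are unlike and no excess is read from this. The 100 members lay in 97 clusters, 3 of which held a pair of members each, namely genes 7 and 39, genes 10 and 31, and genes 64 and 76. Reads of near-identical members of a pair may have been split between them, so their levels are uncertain. Genes 64 and 76, for example, had 22 and 106 counts in P 3 h replicate 2 and 574 and 416 in replicate 3. The members' clusters held 52 other IDs, of which 36 passed the minimum level and 4 had a score above 0, while 7.89% of the kept genes did. TRINITY_DN767_c10_g1 and TRINITY_DN2201_c0_g1 were each alone in their cluster.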

How the data were processed

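Leaf mRNA of 22 libraries was read from the raw counts the authors deposited, 1 whole number per gene and library with no normalization visible. The tools named, without versions, per the submitters' processing notes are FastQC, HISAT2 and featureCounts; the sequence that reads were aligned to was not given in the sources used here. Each of the 22 value columns was matched to a sample by letter, time and replicate number, with 0 other value columns. The replicate numbers missing from these groups, 1 in P 3 h and 3 in P 36 h, were not analysed here.

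For the choice of genes, CPM used plain column totals. For tests, edgeR 4.0.16 in R 4.3.3 was used: filterByExpr with a minimum count of 10 (21694 of 54696 genes; 751 were at 0 in all libraries), TMM scaling (factors 0.902 to 1.08), 8 group means over all libraries (common biological coefficient of variation 0.264), the robust quasi-likelihood test, and Benjamini-Hochberg adjustment over all genes tested, within each of 13 contrasts, of which the difference between letters in the rise to 3 h uses the values that chose the genes and supports nothing here. A call is an adjusted p under 0.05 with no minimum fold. Besides these 13, the 2 contrasts of 3 h against 0 h within a letter were fitted for the reading between the letters. The choice used their values, so their calls for members support nothing and are not given. P at 3 h and at 36 h rest on 2 libraries and on the spread pooled over groups.

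The members and lists were chosen with earlier results of these data known. Members described are among ranks 1 to 10, ranks 50 and 100, the gene just outside, the 3 with the highest CPM at 3 h and, per contrast and direction, up to 3 called with the smallest adjusted p; ranks 64 and 76 were cited for cluster sharing, and rank 70 for its zeros, after their values were seen. Lists of Arabidopsis symbols were not used, since IDs carry no names. Alternatives were RLE scaling, library totals, other filters, DESeq2 1.42.0, a minimum fold of 2, the compared libraries alone, the replicate number as a block, counts summed over Trinity clusters, and leaving out each library in turn; the list itself was rebuilt with other offsets, minima and summaries. Scripts were tested on simulated data. No sign that replicate numbers pair samples was seen: over 26 same-numbered pairs, residuals correlated at -0.18 to 0.13, with 1 pair over 0.1. The labels do not say what the numbers mean, and the check cannot exclude a pairing.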

Additional observations from a re-analysis of the deposited data

Results flagged for a closer look

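The change from 0 to 36 h differed between P and Q in edgeR's interaction test for 10 of the 100 genes. Each had the higher change in P. All values are differences in log2 change with Benjamini-Hochberg adjusted p-values over 21694 genes. That of gene 10 includes a log2 difference of -2.94 between P and Q at 0 h, where its P counts were few. Gene 10 gave 6.98 (adjusted p 0.00532) and gene 79 gave 5.26 (adjusted p 0.00721), and both passed with any of the 11 libraries left out; gene 10 then ran from 4.71 (without P 36 h replicate 2) to 7.85 (without P 36 h replicate 1), and gene 79 from 4.62 (without P 36 h replicate 2) to 6.50 (without Q 36 h replicate 2). Gene 50 gave 4.11 (adjusted p 0.0125) and gene 84 gave 1.57 (adjusted p 0.00809); without P 36 h replicate 2 they gave 2.60 (adjusted p 0.0926) and 1.13 (adjusted p 0.0966).

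Gene 18 gave 1.42 (adjusted p 0.0210), with 25.7 and 15.3 CPM in P and 9.60, 10.1 and 9.92 CPM in Q at 36 h; it did not pass without P 36 h replicate 1 (1.00, adjusted p 0.136) or Q 0 h replicate 3 (1.10, adjusted p 0.0591). Gene 1, TRINITY_DN767_c10_g1, gave 3.57 (adjusted p 0.0277) and was lost in 5 of 11 fits with a library left out: P 0 h replicate 1 or 3, P 36 h replicate 2, Q 0 h replicate 3 or Q 36 h replicate 3 (2.09 to 3.63, adjusted p 0.0534 to 0.273). Gene 43 gave 1.76 (adjusted p 0.0268) and was lost in 5: P 0 h replicate 1 or 2, P 36 h replicate 1, or Q 36 h replicate 2 or 3 (1.44 to 1.80, adjusted p 0.0501 to 0.107).

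Gene 31 gave 3.09 (adjusted p 0.0335), with 22.8 and 169 CPM in P and 9.60, 14.1 and 10.5 CPM in Q at 36 h, and was lost in 8 (1.07 to 3.28, adjusted p 0.0511 to 0.393), all but those without P 0 h replicate 2, P 36 h replicate 1 or Q 0 h replicate 1. Gene 89 gave 3.62 (adjusted p 0.0429), with 4.70 and 14.9 CPM in P and 0.533, 1.17 and 1.14 CPM in Q at 36 h, and was lost in 9 (2.61 to 3.83, adjusted p 0.0535 to 0.298), all but those without P 0 h replicate 1 or P 36 h replicate 1. Gene 81 gave 1.24 (adjusted p 0.0423), with 65.0 and 80.7 CPM in P and 30.3, 37.5 and 37.5 CPM in Q at 36 h, and was lost in each of the 11 (1.11 to 1.39, adjusted p 0.0502 to 0.201). Without P 36 h replicate 1, genes 1, 31, 50 and 89 gave 4.31, 3.92, 4.86 and 4.23, and without P 0 h replicate 1 genes 10, 79 and 89 gave 7.78, 6.14 and 4.44. The part of single libraries in these differences was not tested beyond these fits. Of 19 alternatives that also cover other processing, gene 1 lost its call in 7, gene 18 in 3 and gene 31 in 10. Gene 43 lost its call in 6 of 19, gene 81 in 13 and gene 89 in 11. Genes 50 and 84 lost theirs in 1 of 19 each, gene 10 in 0 of 19 and gene 79 in 0 of 18.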

How the results depend on the processing

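Of 298 alternatives over 16 counts, 270 stayed within 1.5 times the value given above. Counts of members called that moved were those of P against Q at 3 h (DESeq2 1), P against Q at 12 h (no filter 4, DESeq2 11, compared libraries alone 0, replicate block 1, libraries left out 0 to 5), P against Q at 36 h (libraries left out 9 to 27), 36 against 12 h in P (no filter 26, libraries left out 15 to 36) and in Q (no filter 11, libraries left out 14 to 18), and the differences between letters in the change from 0 to 3 h (DESeq2 1, not used for any statement), to 12 h (no filter 1, DESeq2 6) and to 36 h (DESeq2 20, libraries left out 5 to 10). The cause of these moves was not tested. The replicate number as a block, which the check of pairing did not favour (10 of 36 comparisons correlated best with their own number), moved no other count by over 1.5 times: it gave 29 for P against Q at 36 h, 42 and 49 for 12 against 0 h in P and Q, 34 and 32 for 36 against 0 h, 42 and 20 for 36 against 12 h and 9 for the change to 36 h. The list kept 53 members with the score in P alone and 45 in Q alone, 79 to 97 under other offsets, minima, scalings and summaries, and 77 to 99 with a library left out. Genes chosen in Q and called in P numbered 30 to 61 with a library left out. Of 907 alternatives over 63 described tests, 812 kept direction and call, 92 lost the call and 3 reversed: gene 2 in P against Q at 36 h without P 36 h replicate 1 (-1.76; -1.76 to 3.01 with any library left out), and from 12 to 36 h in P gene 71 with counts summed over Trinity clusters (0.76) and gene 1 without P 36 h replicate 2 (-1.03; -1.03 to 1.19 with any library left out). At 1 CPM, 13.7 to 18.5 counts limit what can be seen.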
